A study of Mus musculus with 9 samples.

Results

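Myelin genes and other genes of mature oligodendrocytes were followed through 3 settings of the adult mouse cortex: uninjured tissue, tissue with a stab wound, and cultures grown from the wound. The set holds 32 genes of the 56748 in the deposited count table, chosen by symbol from a list of myelin structural proteins, gap junction proteins, lipid and metabolic enzymes, transcription factors and other genes abundant in these cells. Each symbol occurred once in the table, and all 32 genes were among the 18093 that had enough counts to be tested. RNA with polyA tails was sequenced in 9 libraries, 3 biological replicates in each group, from wild-type C57BL/6J mice 2 to 3 months old. Uninjured cortex and injured cortex were papain-dissociated cells sorted by flow cytometry, which removed debris, dead cells and neurons (positive for CD171 and negative for ACSA-2, an astrocyte surface antigen). The injury was a grid of lancet stabs, and only the lesion core was taken. Reactive cultures were lesion cores grown in medium with 10% fetal bovine serum and B27 supplement and harvested whole, with no sort. The labels place dissection at 1 day after injury and give 6 days in culture, while the series' design text gives 3 days for injured cortex, and 24 h and then 8 days for cultures, so times are not compared here. Cultures therefore differ from injured cortex in time, medium and sorting together, and these cannot be told apart.

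Oligodendrocytes wrap axons of the central nervous system in myelin, a stack of membrane that speeds conduction and is rich in cholesterol and galactolipids. Precursor cells leave the cell cycle, pass through a short premyelinating stage and then switch on the genes of the sheath under transcription factors that include Olig2, Sox10 and Myrf. Structural proteins hold the layers together (Mbp, Mobp), line its surfaces (Mog, Mag) or keep its channels open (Cnp), and enzymes such as Ugt8a, Fa2h and Gal3st1 make its lipids. Several other genes of the set are also made by other cells: Gsn and Cryab occur in contractile and connective tissue cells, and Trf in the choroid plexus.

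Total counts were 12205049 to 24302770 per library. Uninjured replicates 2 and 3 stood apart, with 182 and 151 CPM (counts scaled to library size) in 1999 olfactory and vomeronasal receptor genes, which cortex does not use, against 14.4 to 44.1 CPM in the other 7 libraries. Members called in comparisons with uninjured cortex are therefore also counted without these 2 libraries, where the remaining uninjured library is assumed to vary like the other groups. Levels of single genes below are CPM after TMM normalisation (trimmed mean of M values). Fold changes and adjusted p come from edgeR's quasi-likelihood test, adjusted by Benjamini-Hochberg across the 18093 genes, and a gene is called at an adjusted p under 0.05. The 3 comparisons share groups, so that their counts are not independent of each other. Because whole populations of cells were sequenced, fewer cells of a type and less RNA per cell cannot be told apart.

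The set took a larger share of the counts in both cortex groups than in cultures. The 32 genes took 3.21% to 4.62% of all counts in uninjured cortex and 2.39% to 3.28% in injured cortex. In cultures the 32 genes took 0.197% to 0.228% of the counts. These shares do not show which cells the counts came from. Schwann cells also make several of these proteins. Of 6 Schwann cell markers 3 were below 1 CPM in every library, and Pmp2 had 0 counts in all 9, while Cdh19 was at 17.1 to 19.8 CPM and Pou3f1 at 25.4 to 31.4 CPM in uninjured cortex. The 6 summed to 45.9 to 51.2 CPM in uninjured cortex, 24.0 to 51.2 CPM in injured cortex and 4.48 to 13.4 CPM in cultures, and their part in the members' levels was not tested.

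Per kilobase of exon, the most abundant member in uninjured cortex was Trf, which encodes the iron carrier transferrin (1825 ± 669 CPM per kb, mean ± SD, n = 3). It was followed by Car2, a carbonic anhydrase (1579 ± 282), Cryab, a small heat shock protein (1443 ± 270), Qdpr, which recycles the cofactor tetrahydrobiopterin (1208 ± 154), and Cnp (809 ± 262 CPM per kb). Neighbours in this order lay within their SDs of each other, apart from Qdpr and Cnp. The order depends on the lengths used. Mbp was at rank 8 of 32, where its 8469 bases include exons of its longer Golli transcripts. By mean share of the set's counts, without length, Mbp was at rank 2 (13.2%), after Trf (18.0%). Of the Trf exon bases 63.5% overlap another gene, Gm20425. The least abundant were Abca8a, a lipid transporter (5.88 ± 2.65 CPM per kb), and Enpp6, a choline phosphodiesterase that is highest in newly forming oligodendrocytes (5.36 ± 1.70 CPM per kb). Myrf, the factor that switches on myelin genes, was low among the members as well (7.69 ± 3.75 CPM per kb). In cultures the order on the same scale was led by Cryab (283 ± 47.1), Gsn (250 ± 10.7) and Trf (250 ± 60.2 CPM per kb), followed by Qdpr (68.3 ± 14.9) and Mbp (46.8 ± 15.5 CPM per kb). Mog dropped from rank 6 of 32 in uninjured cortex to rank 24 in cultures, and Gsn went from rank 20 to rank 2.

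**Figure D1:**
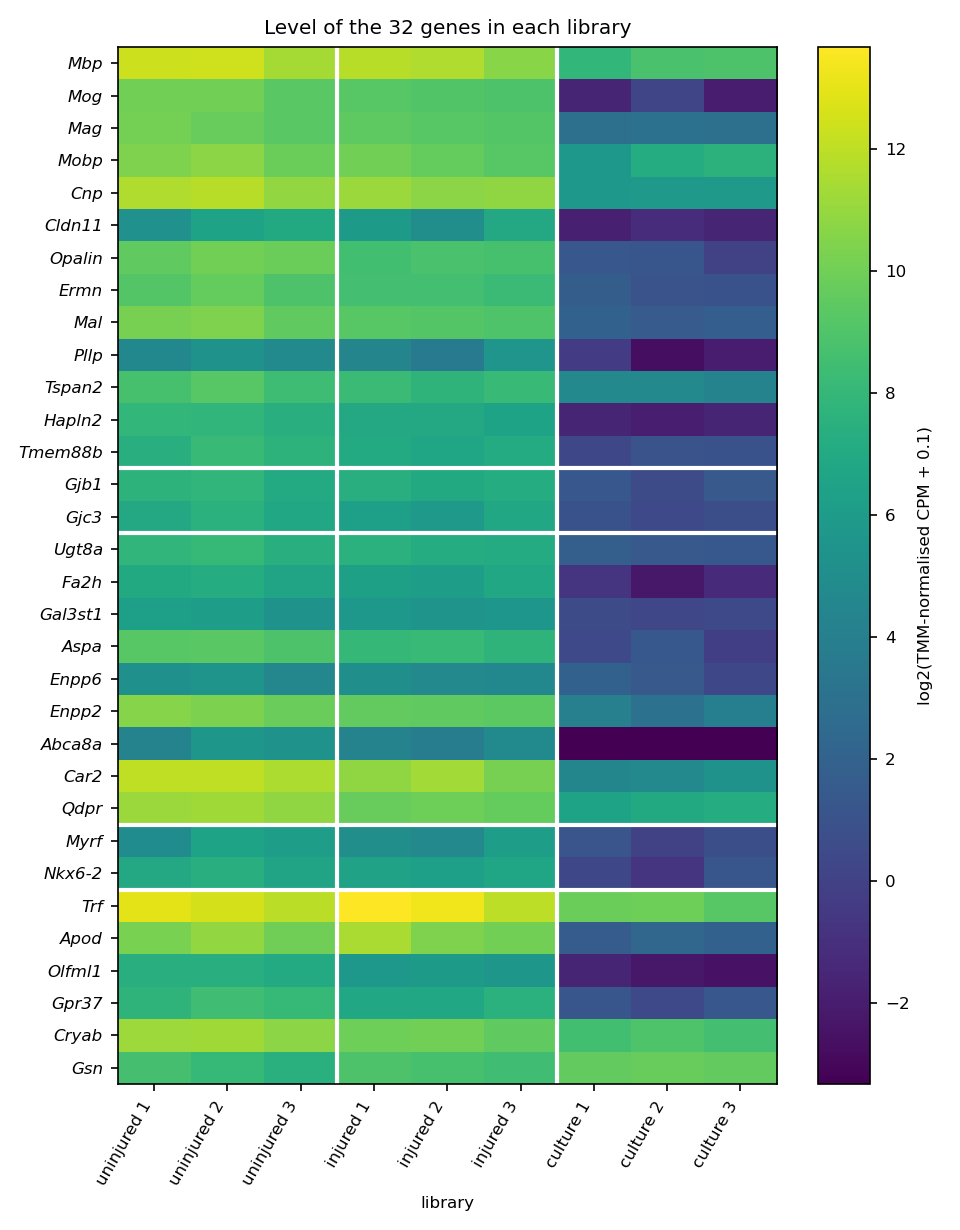
Level of each of the 32 genes (rows, grouped by role from structural proteins at the top to secreted and other proteins at the bottom) in each of the 9 libraries (columns), as log2 of TMM-normalised CPM plus 0.1. The 3 culture columns are dark for most genes, with Mbp, Trf, Cryab and Gsn at 100 CPM or more in every culture and Abca8a at 0.

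Most members moved in the same direction in the comparisons below. The 250 bases before the annotated starts of members were therefore read from RefSeq promoters of build GRCm38.p6. These hold 25 of the 32 genes, with 35 promoters. The Myrf-like motif CTGGNAC, where N was any base, was searched on both strands (its reverse is GTNCCAG). It was present in 9 of the 35 promoters (25.7%), against 16.1% of all 32851 promoters in the table. These belonged to 7 of the 25 genes, where 17.9% of all 27025 genes with a promoter had a match. Promoters of 1 gene can overlap, and overlapping Mag windows share their matches. The Sox-like motif ACAAAG was present in 25.7% against 16.5%, and the E-box CANNTG in 71.4% against 66.2%. A match describes letters only. No Myrf-like match lay in the windows of Olfml1, Opalin, Mal, Aspa, Qdpr and Gpr37. The 7 genes with a match were Mog, Hapln2, Mag, Cnp, Gjb1, Gsn and Apod. Gsn had a match 96 bases before 1 of its starts, and Apod 140 bases before its start. These include genes that did not fall: Gsn rose in cultures, and Gsn and Apod had log2 fold changes above 0 after injury. Windows with the Myrf-like motif are shown for 4 of the 7 genes, in gene orientation, with the motif in capitals.
Mog (chr17:37023399-37023648, minus strand): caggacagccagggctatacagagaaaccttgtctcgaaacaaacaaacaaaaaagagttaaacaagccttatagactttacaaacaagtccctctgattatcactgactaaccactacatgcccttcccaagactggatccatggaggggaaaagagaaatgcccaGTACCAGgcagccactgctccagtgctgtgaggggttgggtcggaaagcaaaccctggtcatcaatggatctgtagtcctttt
Hapln2 (chr3:88027512-88027761, minus strand): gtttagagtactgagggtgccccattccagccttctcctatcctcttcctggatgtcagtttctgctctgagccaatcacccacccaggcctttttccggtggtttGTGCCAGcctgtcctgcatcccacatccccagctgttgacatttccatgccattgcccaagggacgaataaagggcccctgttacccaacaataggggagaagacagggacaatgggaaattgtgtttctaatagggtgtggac
Mag (chr7:30914864-30915113, minus strand): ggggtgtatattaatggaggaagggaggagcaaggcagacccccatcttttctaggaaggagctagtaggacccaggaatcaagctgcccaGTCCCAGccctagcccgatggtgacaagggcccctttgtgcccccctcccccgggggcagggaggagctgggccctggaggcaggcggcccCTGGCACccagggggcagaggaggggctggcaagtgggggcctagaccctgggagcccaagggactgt
Cnp (chr11:100574689-100574938, plus strand): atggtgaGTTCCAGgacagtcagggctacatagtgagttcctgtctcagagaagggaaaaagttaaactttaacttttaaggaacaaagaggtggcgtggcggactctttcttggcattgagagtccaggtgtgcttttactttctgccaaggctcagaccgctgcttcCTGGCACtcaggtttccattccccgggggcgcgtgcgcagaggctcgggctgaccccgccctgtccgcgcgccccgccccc
The Mog window holds 1 match, which starts 83 bases before the start site, and the Hapln2 window 1 match at 144 bases. The Mag window holds 2 matches, at 159 and 68 bases, and the Cnp window 2 matches, at 243 and 81 bases.

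Injured and uninjured cortex were compared first, to see what the wound does to myelin genes in sorted non-neuronal cells. Of the 32 genes, 8 fell and 0 rose, where 2.87% of all genes tested were called lower and 8.99% higher. The 8 were Olfml1, Qdpr, Aspa, Cryab, Opalin, Gpr37, Mal and Hapln2, with log2 fold changes between -1.50 and -0.93. The median of the 32 log2 fold changes was -0.70, against 0.00 over all genes tested, and 29 of 32 were below 0, against 49.9% of all genes. In 15 of the 32 the injured libraries all lay below the uninjured ones, and in 0 all above, against 12.5% and 16.1% of genes tested. The summed level of the set was 42191, 46224 and 32079 CPM of the library total in uninjured cortex and 32789, 25445 and 23861 CPM in injured cortex, a log2 ratio of means of -0.55. These sums overlap, since injured replicate 1 lay above uninjured replicate 3.

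The lowest fold change belonged to Olfml1 (ENSMUSG00000051041), which encodes a secreted protein with an olfactomedin domain. It measured 170, 169 and 131 CPM in uninjured cortex and 54.3, 61.0 and 51.6 CPM in injured cortex. All 3 injured libraries were below all 3 uninjured ones, and those within a group differed little. The log2 fold change was -1.50 ± 0.21 (SE), adjusted p = 0.000704. Olfml1 kept its call in all 19 alternative analyses, with log2 fold changes from -1.65 to -1.42 and an adjusted p of at most 0.0189. No other member did.

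Structural proteins gave 3 of the 8 calls among 13 genes, and all 13 had a log2 fold change below 0 (median -0.73). Opalin, a membrane protein of the paranodal loops and a marker of mature oligodendrocytes, fell from 749, 1063 and 914 CPM to 376, 439 and 421 CPM (-1.14 ± 0.30, adjusted p = 0.0265). Mal, a proteolipid of lipid rafts, measured 1158, 1309 and 750 CPM before and 607, 564 and 516 CPM after injury (-0.93 ± 0.26, adjusted p = 0.0384). Hapln2, a link protein of the matrix at nodes of Ranvier, measured 248, 232 and 164 CPM and then 125, 120 and 93.5 CPM (-0.93 ± 0.22, adjusted p = 0.0155). In each of the 3 genes the groups did not overlap, and in Mal and Hapln2 uninjured replicate 3 lay nearest to the injured libraries.

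The best known sheath proteins did not pass. Mbp, myelin basic protein (ENSMUSG00000041607), was at 5293, 5628 and 2608 CPM in uninjured and 3606, 3264 and 1626 CPM in injured cortex, with overlapping groups and a log2 fold change of -0.67 ± 0.42 (adjusted p = 0.347). Mog, a glycoprotein of the outermost sheath surface (ENSMUSG00000076439), was at 1043, 1084 and 645 CPM and at 626, 535 and 487 CPM. Its groups did not overlap, but the gap between uninjured replicate 3 and injured replicate 1 was narrow (-0.75 ± 0.38, adjusted p = 0.233). Log2 fold changes were -0.47 ± 0.25 for Mag, an adhesion protein facing the axon (adjusted p = 0.258), -0.65 ± 0.42 for Mobp (adjusted p = 0.359) and -0.63 ± 0.31 for Cnp (adjusted p = 0.216). A p above the threshold does not show that these levels were the same. Nearest to the threshold among the other structural genes were Tmem88b (-0.77, adjusted p = 0.0639), Ermn, a cytoskeletal protein (-0.82, adjusted p = 0.0697), and Tspan2, a tetraspanin (-0.73, adjusted p = 0.0989). Cldn11, which forms tight junctions between sheath layers, was at -0.25 and the proteolipid Pllp at -0.20, both with wide overlap between groups.

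Among 9 enzymes and transporters 2 fell. Qdpr went from 2189, 2420 and 1873 CPM to 836, 981 and 811 CPM (-1.30 ± 0.27, adjusted p = 0.00832). Aspa, which breaks down N-acetylaspartate to supply acetate for lipid synthesis, went from 622, 629 and 491 CPM to 251, 297 and 210 CPM (-1.20 ± 0.31, adjusted p = 0.024). In both genes every injured library was well below every uninjured one. Car2 was at 4152, 4283 and 3039 CPM in uninjured and 1842, 2601 and 1183 CPM in injured cortex, where groups did not overlap but the injured libraries spread widely (-1.03 ± 0.36, adjusted p = 0.0909). The enzymes of galactolipid synthesis did not pass: Ugt8a, which makes galactosylceramide, was at -0.46 (adjusted p = 0.244), Fa2h, which hydroxylates its fatty acids, at -0.49 (adjusted p = 0.283), and Gal3st1, which adds the sulfate of sulfatide, at -0.36 (adjusted p = 0.376). Enpp2, the lysophospholipase D known as autotaxin, was at -0.75 (adjusted p = 0.145), Enpp6 at -0.28 (adjusted p = 0.649) and Abca8a at -0.86 (adjusted p = 0.167).

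Neither gap junction gene was called. Gjb1 was at -0.38 (adjusted p = 0.371) and Gjc3 at -0.78 (adjusted p = 0.087). Of the transcription factors, Myrf was at 30.2, 92.6 and 74.7 CPM in uninjured and 33.5, 25.7 and 74.3 CPM in injured cortex (-0.56 ± 0.44, adjusted p = 0.454). Its range was alike in both groups, with a low library in uninjured and a high one in injured cortex. The homeobox factor Nkx6-2 was at -0.50 (adjusted p = 0.358).

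The remaining 6 genes split. Beside Olfml1, Cryab fell from 2291, 2430 and 1680 CPM to 987, 1071 and 743 CPM (-1.19 ± 0.28, adjusted p = 0.0167). Gpr37, an orphan receptor of the oligodendrocyte lineage, fell from 214, 360 and 268 CPM to 115, 113 and 189 CPM (-1.01 ± 0.29, adjusted p = 0.0399), with injured replicate 3 close to uninjured replicate 1. The only 3 members with a log2 fold change above 0 were in this group, and 0 of them was called. Trf was at 8229, 6161 and 3789 CPM in uninjured and 13040, 10094 and 4046 CPM in injured cortex (0.58 ± 0.46, adjusted p = 0.466). Apod, a lipid-binding lipocalin, was at 1243, 1943 and 997 CPM and at 2949, 1333 and 1044 CPM (0.35 ± 0.40, adjusted p = 0.633). Gsn, which encodes the actin-severing protein gelsolin, was at 400, 265 and 174 CPM and at 491, 425 and 354 CPM (0.60 ± 0.30, adjusted p = 0.226). In all 3 genes the groups overlapped, and injured replicate 1 was the highest injured library. Trf alone made up 40.4%, 37.2% and 23.6% of the set's counts in injured cortex, against 22.1%, 15.97% and 15.9% in uninjured cortex.

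**Figure D2:**
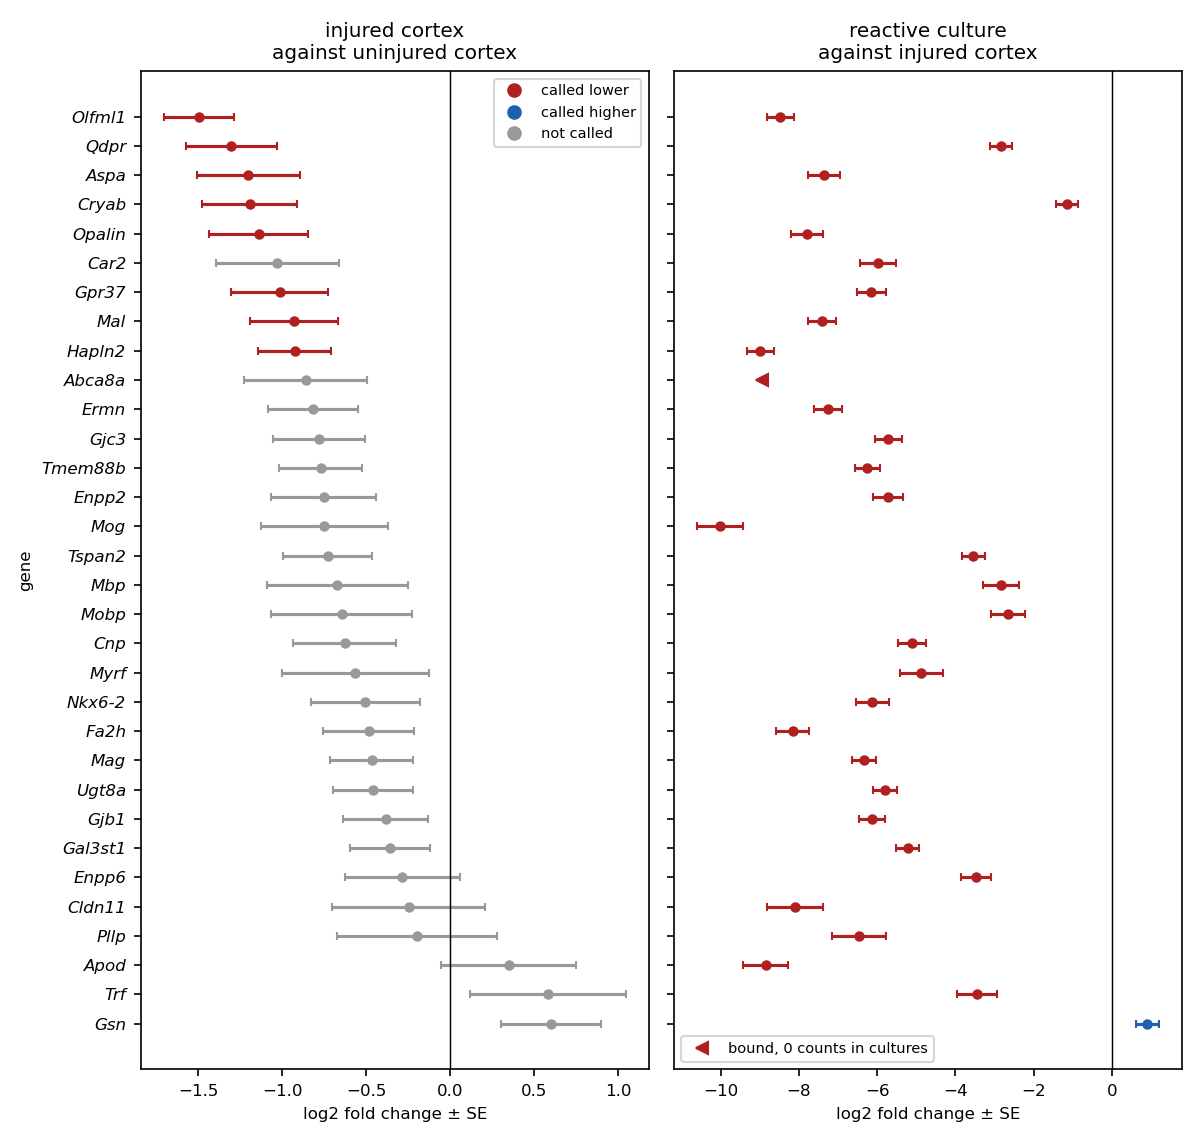
Log2 fold change with its SE (horizontal axis) for each of the 32 genes (vertical axis, ordered by the left panel), injured against uninjured cortex on the left and reactive culture against injured cortex on the right, on different scales. On the left 8 genes are called lower and 29 lie left of 0, and on the right 31 are called lower and Gsn higher, with Abca8a drawn as a bound because cultures held 0 counts.

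The number of members called after injury depended on which libraries were kept. There were 2 without injured replicate 1 (Olfml1 and Hapln2, with 0.625% of all genes called lower), 2 without uninjured replicate 2 (Olfml1 and Qdpr, with 0.823%) and 12 without injured replicate 3 (8.96%). Without uninjured replicates 2 and 3 only Olfml1 remained called, where 0.211% of genes were called lower, and the median of the 32 was -0.65. Mal and Gpr37 each lost their call in 9 of the 19 alternatives, Opalin in 5, Aspa and Cryab in 4, Hapln2 in 3 and Qdpr in 2. Among these, Opalin was lost without injured replicate 2 (adjusted p = 0.051) or uninjured replicate 3 (0.0624), and Aspa without uninjured replicate 1 (0.05). Mal was also lost without injured replicate 2 (0.084), uninjured replicate 1 (0.0827) or any 1 culture (0.0602 to 0.0747), and Gpr37 without injured replicate 2 (0.121), uninjured replicate 3 (0.0792), or culture replicate 1 (0.062) or 3 (0.0652). With uninjured replicates 2 and 3 both left out, Qdpr was at -1.34 (adjusted p = 0.0946), Cryab at -1.31 (adjusted p = 0.111), Aspa at -1.31 (adjusted p = 0.152) and Hapln2 at -1.15 (adjusted p = 0.0632). The DESeq2 Wald test called 14, adding Car2, Enpp2, Ermn, Gjc3, Tmem88b and Tspan2, with 6.89% of all genes lower.

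Spread within uninjured cortex followed the library for most members. In uninjured cortex 25 of the 32 genes were lowest in replicate 3 and 24 highest in replicate 2, and the median ratio of highest to lowest library was 1.70. The other 7 were lowest in uninjured replicate 1, namely Cldn11, Opalin, Myrf, Tmem88b, Pllp, Gpr37 and Abca8a. In injured cortex the members were more divided, with 1, 13 and 18 lowest and 17, 6 and 9 highest in replicates 1, 2 and 3. Of those 7 genes 6, all but Opalin, were among the 9 highest in injured replicate 3. Cldn11 showed this most clearly, at 38.4, 92.5 and 128 CPM in uninjured and 60.02, 33.0 and 125 CPM in injured cortex. In cultures 10, 11 and 11 members were lowest and 15, 10 and 7 highest in replicates 1, 2 and 3. There Abca8a, at 0 counts throughout, is counted under replicate 1. Markers of other cells varied between the same libraries. Summed levels of 8 astrocyte markers were 6459, 3660 and 5190 CPM in uninjured and 2364, 2785 and 3914 CPM in injured cortex. Of the 8, 6 had a log2 fold change below 0 and 0 were called lower. Only Gfap was called, higher after injury, from 19.9, 12.9 and 8.77 CPM to 310, 275 and 318 CPM. Summed levels of 6 neutrophil markers were 29.0, 90.0 and 95.6 CPM and then 363, 273 and 246 CPM. Those of 7 mural cell markers were 816, 1409 and 1523 CPM and then 517, 515 and 472 CPM. Precursor genes summed to 906 CPM in injured replicate 3, against 342 and 157 CPM in injured replicates 1 and 2. The part of these differences in the members' values was not tested.

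Cultures, grown from lesion cores and not sorted, were then set against the sorted cells of injured cortex. Here 31 of the 32 genes fell and 1, Gsn, rose, where 30.1% of all genes tested were called lower and 20.0% higher. In all 32 genes the 3 cultures lay wholly outside the range of injured cortex, against 33.8% of all genes for lower and 25.8% for higher cultures. The median log2 fold change was -6.13, also with Abca8a set at its bound, against -0.19 over all genes tested. A fall of 5 or more on the log2 scale was called in 23 of the 32 genes and in 5.59% of all genes. The summed level was 1971, 2275 and 2112 CPM of the library total in cultures, a log2 ratio of -3.69 to injured cortex.

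All 13 structural genes fell, with a median of -6.46. The deepest fall among members with counts was that of Mog, from 626, 535 and 487 CPM to 0.245, 1.09 and 0.156 CPM, or 4, 19 and 2 counts (log2 fold change -10.02 ± 0.58, adjusted p = 1.41e-07). Hapln2 fell from 125, 120 and 93.5 CPM to 0.245, 0.172 and 0.234 CPM (-8.99 ± 0.34, adjusted p = 4.1e-08). Cldn11 was at 0.184 to 0.344 CPM in cultures (-8.11 ± 0.71, adjusted p = 3.1e-06). At such levels 1 count moves the value, and the CPM carry that counting error. Falls of -7.80 in Opalin, -7.41 in Mal, -7.25 in Ermn, -6.46 in Pllp, -6.34 in Mag and -6.25 in Tmem88b had adjusted p from 6.99e-08 to 1.45e-05. Mag was steady between cultures at 7.79, 7.86 and 7.50 CPM, as was Cnp at 52.4, 56.7 and 55.4 CPM (-5.12 ± 0.36, adjusted p = 5.41e-07).

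Mbp and Mobp fell less than the other structural genes. Their mRNAs are known to travel into the processes of oligodendrocytes, and the part of this in the smaller falls was not tested. Mbp was at 247, 445 and 496 CPM in cultures (-2.84 ± 0.45, adjusted p = 3e-04) and Mobp at 54.0, 149 and 193 CPM (-2.66 ± 0.44, adjusted p = 0.000423). Both were lowest in culture replicate 1 and highest in replicate 3, while Mog was highest in replicate 2. In each cortex library there were 3.34 to 6.10 Mbp counts for each Mog count and 1.27 to 1.70 Mobp counts. In the cultures 4036, 7747 and 6351 Mbp counts stood against 4, 19 and 2 Mog counts, so these ratios rest on few Mog counts. Per Mog count there were 1009 Mbp counts in culture replicate 1 (95% exact interval 394 to 3705, counting error only), 408 in replicate 2 (261 to 678) and 3176 in replicate 3 (879 to 26227). The ratios of all 3 cultures lay above those of all 6 cortex libraries, where an exact permutation test of 3 against 3 libraries cannot give a p under 0.1. Mog had the deepest fall of the members with counts, so ratios to it rose in cultures for other genes as well. Per Mog count, Cnp was at 213.75, 51.9 and 354.5 in cultures and at 2.94 to 3.70 in cortex. Mag was at 31.75, 7.21 and 48 in cultures and at 0.777 to 1.16 in cortex. A higher ratio to Mog is therefore not particular to Mbp and Mobp. Tspan2 also fell by less than most, from 313, 212 and 295 CPM to 25.8, 25.1 and 19.0 CPM (-3.55 ± 0.29, adjusted p = 1.87e-06).

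The 9 enzymes and transporters fell with a median of -5.80. Abca8a had 0 counts in all 3 cultures and was at least 497-fold lower than in injured cortex, taking 3 counts in all 3 cultures together as the floor. Fa2h was at 0.490, 0.115 and 0.312 CPM (-8.16 ± 0.42, adjusted p = 8.37e-08), Aspa at 1.23, 2.47 and 0.781 CPM (-7.37 ± 0.41, adjusted p = 1.17e-07) and Ugt8a at 3.49, 2.58 and 2.42 CPM (-5.80 ± 0.30, adjusted p = 8.37e-08). Car2 kept 22.6, 25.3 and 41.3 CPM (-5.98 ± 0.45, adjusted p = 8.51e-07), and Enpp2 fell by a like amount (-5.73, adjusted p = 3.32e-07), as did Gal3st1 (-5.23, adjusted p = 1.4e-07). The smallest falls in this group were those of Qdpr, at 93.0, 128 and 145 CPM in cultures (-2.84 ± 0.29, adjusted p = 8.64e-06), and Enpp6, at 3.80, 2.53 and 1.17 CPM (-3.48 ± 0.39, adjusted p = 2.26e-05). The gap junction genes Gjb1 (-6.13) and Gjc3 (-5.72) and the transcription factors Myrf (-4.87 ± 0.55, adjusted p = 2.17e-05) and Nkx6-2 (-6.12 ± 0.43, adjusted p = 4.93e-07) fell as well.

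Of the 6 secreted, receptor, chaperone and cytoskeletal genes, Apod (-8.85 ± 0.57, adjusted p = 2.62e-07), Olfml1 (-8.47 ± 0.34, adjusted p = 4.27e-08) and Gpr37 (-6.16 ± 0.37, adjusted p = 1.66e-07) fell to at most 4.71 CPM in any culture. Trf kept 914, 976 and 603 CPM, well below the lowest injured library (-3.45 ± 0.51, adjusted p = 0.000174). Cryab had the smallest fall of the 31, to 371, 498 and 386 CPM (-1.16 ± 0.28, adjusted p = 0.00503). Gsn rose to 786, 826 and 759 CPM, above each injured library (0.90 ± 0.30, adjusted p = 0.025). The call of Gsn ended without any 1 of the 3 cultures, with an adjusted p of 0.0589, 0.0713 and 0.056 without replicate 1, 2 and 3.

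Cultures thus held 6 members below 1 CPM in every replicate (Cldn11, Hapln2, Fa2h, Pllp, Abca8a and Olfml1) and 22 below 10 CPM. At 10 CPM or more in every replicate there were 9: Mbp, Mobp, Cnp, Trf, Tspan2, Cryab, Car2, Gsn and Qdpr. Trf, Gsn, Cryab and Mbp made up 88.3%, 86.5% and 81.6% of the set's counts in the cultures, on average 29.2%, 27.9%, 14.6% and 13.8%. The same 4 genes made up 34.6% to 43.4% in uninjured and 39.5% to 56.2% in injured cortex. Without them the set summed to 308, 429 and 506 CPM (TMM-normalised) in cultures and to 14137, 12268 and 10367 CPM in injured cortex.

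**Figure D3:**
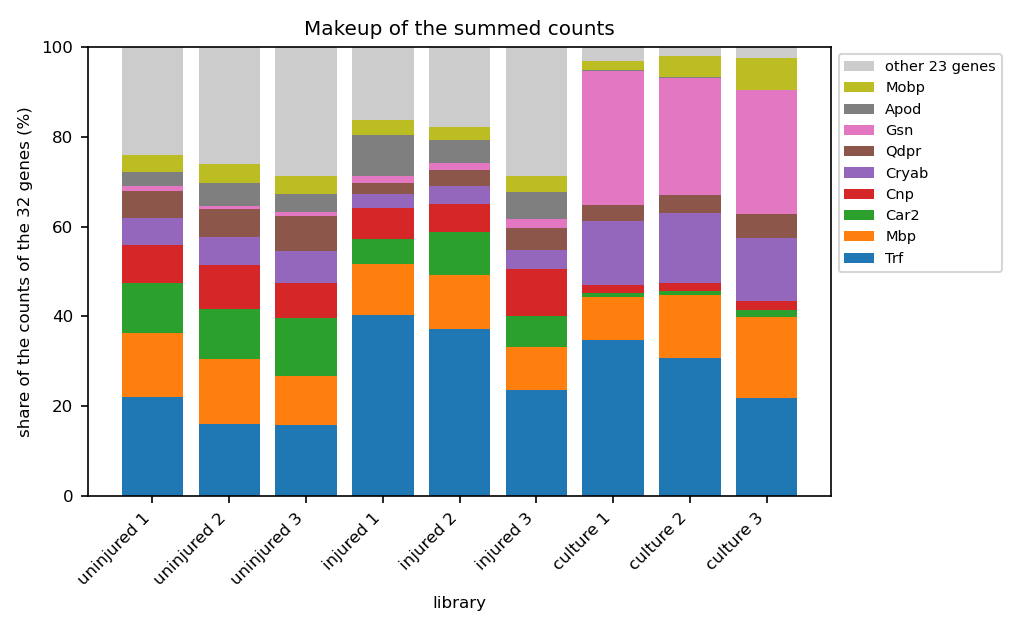
Share of the counts of the 32 genes (vertical axis, in percent) taken by 9 named genes and by the other 23 together, in each library (horizontal axis). Gsn and Cryab fill a large part of the culture bars, where Gsn averages 27.9% against 0.829% in uninjured cortex.

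Markers of cells other than oligodendrocytes differed between the same groups. The 7 mural cell markers summed to 3190 to 3731 CPM in cultures and 472 to 517 CPM in injured cortex, and Acta2, the actin of smooth muscle and myofibroblasts, supplied most of it with 3495, 3650 and 3113 CPM. Of the 7, Acta2 and Myh11 were called higher in cultures than in injured cortex and the other 5, Rgs5, Kcnj8, Higd1b, Abcc9 and Vtn, were called lower (median log2 fold change over the 7 -3.53). The 7 fibroblast markers summed to 214 to 530 CPM in cultures and to 43.4 to 43.8 CPM in injured cortex. The 7 choroid plexus markers summed to 34.3, 3.50 and 40.0 CPM in cultures and to 0.471, 2.46 and 19.7 CPM in injured cortex. Of the 3 that were tested, Folr1 (2.21, 2.35 and 2.27 CPM in cultures) and Aqp1 (0.920, 0.804 and 0.859 CPM) were called higher than in injured cortex, and Ttr (29.3, 0 and 36.0 CPM) did not pass. Astrocyte markers summed to 91.5 to 159 CPM in cultures, against 2364 to 3914 CPM in injured cortex. The part of these cells in the levels of Gsn, Cryab and Trf was not tested.

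Against uninjured cortex, cultures gave the same counts: 31 of 32 genes lower and Gsn higher, where 33.1% of all genes were called lower and 27.5% higher. All 32 had groups that did not overlap, against 37.1% and 32.1% of all genes for lower and higher cultures. The median log2 fold change was -6.64, against -0.17 over all genes. A called fall of 5 or more was seen in 24 members and in 6.25% of all genes. Values were -10.77 ± 0.60 for Mog, -3.51 ± 0.46 for Mbp, -2.35 ± 0.29 for Cryab and 1.50 ± 0.30 for Gsn (adjusted p = 5.29e-08, 4.91e-05, 3.01e-05 and 0.00114). Abca8a was at least 961-fold lower. Without uninjured replicates 2 and 3 the 31 lower calls remained, and Gsn was at 0.97 (adjusted p = 0.0691).

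The same comparisons were read for other genes of the lineage. Of all genes tested 2.87% were called lower and 8.99% higher after injury. In cultures against injured cortex these shares were 30.1% and 20.0%. Among 24 further genes of mature oligodendrocytes 6 fell and 1 rose after injury, with a median of -0.68. Lpar1, a lysophosphatidic acid receptor, measured -1.16 (adjusted p = 0.0153) and Ppp1r14a, an inhibitor of myosin phosphatase, -0.90 (adjusted p = 0.0149). The exception was Klk6, a secreted serine protease, at 34.0, 25.1 and 19.5 CPM in uninjured and 477, 256 and 119 CPM in injured cortex, with no overlap (3.44 ± 0.45, adjusted p = 0.000496). In cultures Klk6 was at 0.920, 1.38 and 2.03 CPM, and 22 of the 24 genes were lower than in injured cortex (median -4.31), with Septin4, a cytoskeletal GTPase, at 9.50, 14.6 and 8.28 CPM and Ninj2, an adhesion protein, at 0.674, 0.344 and 0.156 CPM. The calls of Lpar1, Ppp1r14a and Klk6 after injury ended without uninjured replicates 2 and 3 (adjusted p = 0.131, 0.279 and 0.0575), those of Lpar1 and Ppp1r14a also without uninjured replicate 2 (0.0754 and 0.0545) or injured replicate 1 (0.0579 and 0.0849).

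Lineage transcription factors were not called after injury (0 of 9, median -0.09), and few calls would fall in so short a list at the shares above. Olig1 was at 267, 374 and 128 CPM in uninjured and 331, 160 and 391 CPM in injured cortex (0.20, adjusted p = 0.792), and Olig2 (-0.07, adjusted p = 0.908) and Sox10 (-0.09, adjusted p = 0.918) had overlapping groups as well. Whether these factors differed from the members in their change was not tested. In cultures 8 of the 9 were lower than in injured cortex (median -5.01), with Olig1 at 1.59, 2.41 and 1.95 CPM, Olig2 at 0.674, 0.517 and 0.703 CPM and Sox10 at 3.13, 1.09 and 1.72 CPM. Tcf7l2, which many cell types use, did not pass (-0.62, adjusted p = 0.136).

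Of 8 tested genes listed for differentiating cells, 3 were called higher after injury and 0 lower. Rras2, a Ras-like GTPase, was at 14.9, 10.3 and 11.1 CPM and then 28.1, 28.8 and 18.9 CPM (1.06 ± 0.24, adjusted p = 0.0135), and Fyn, a kinase that promotes myelination, measured 0.81 ± 0.21 (adjusted p = 0.029). Gpr17, a receptor of premyelinating cells, was called at 3.83 ± 0.93 (adjusted p = 0.0193), but its groups overlapped, at 9.37, 1.66 and 0.548 CPM in uninjured and 49.5, 8.05 and 108 CPM in injured cortex. All 3 calls ended without uninjured replicate 2 (adjusted p = 0.078, 0.11 and 0.0906 for Rras2, Fyn and Gpr17) or uninjured replicate 3 (0.061, 0.126 and 0.0587), or without both (0.391, 0.536 and 0.293), those of Rras2 and Fyn also without injured replicate 1 (0.0806 and 0.171). The call of Fyn also ended without culture replicate 2 (0.0522) or 3 (0.0528). Of 8 precursor genes 1 was called higher, the matrix proteoglycan Vcan (2.13, adjusted p = 0.0397), whose groups overlapped and whose call ended in 14 of the 19 alternative analyses. In cultures, against injured cortex, 7 precursor genes and 6 differentiating genes were lower and Rras2 was higher (1.01). Rras2 was at 44.6, 60.2 and 47.7 CPM in cultures and Fyn at 60.5, 65.8 and 58.7 CPM. In the same cultures Olig1, Olig2 and Sox10 were at 3.13 CPM or less. Which cells made Rras2 and Fyn in any group was not tested.

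**Figure D4:**
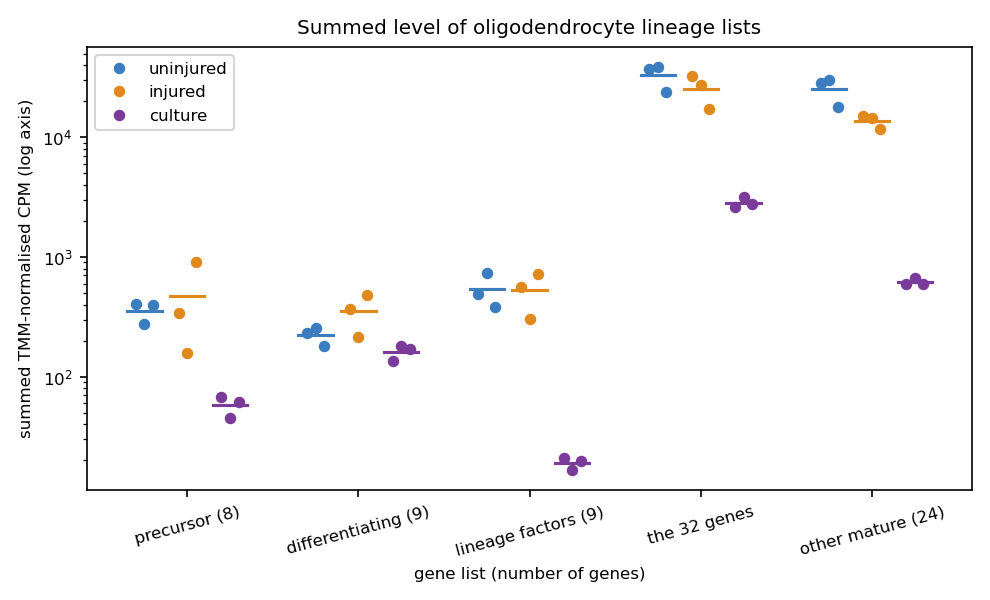
Summed TMM-normalised CPM (vertical log axis) of 5 gene lists of the oligodendrocyte lineage, with a point for each library and a bar for the mean of each group of 3. Injured and uninjured points overlap for the 32 genes, precursor genes, differentiating genes and lineage factors but not for the other mature genes. The culture points lie below all 6 cortex points in every list. For the differentiating genes the gap is narrow, between 181.5 CPM in culture replicate 2 and 181.8 CPM in uninjured replicate 3.

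Genes of lipid pathways that feed the sheath were not called after injury, where 2.87% of all genes were called lower and 8.99% higher. At those shares few calls would fall in lists this short. For cholesterol synthesis 0 of 17 genes passed (median 0.02), and for sphingolipid synthesis and galactolipid turnover 0 of 10 (median 0.00). In cultures 12 of the 17 cholesterol genes were lower than in injured cortex (median -1.04), against 30.1% of all genes. Fdft1, squalene synthase, was at -1.95, Hmgcs1 at -1.69 and Insig1, a sensor of sterol supply, at -1.55. Of the 10 sphingolipid genes 5 were higher and 0 lower (median 0.64), where 20.0% of all genes were called higher. Among the 5 were Psap, which encodes the activators of lysosomal sphingolipid breakdown (2.07), and Degs1, which makes ceramide (1.31). Psap was at 1330, 387 and 456 CPM in the cultures, and its log2 fold change was 1.30 without culture replicate 1. These are pathways of many cell types, in contrast to the galactolipid enzymes Ugt8a, Fa2h and Gal3st1 of the set.

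Exons of 10 members overlap another gene in the annotation used for lengths (GENCODE M21), and whether counting used strand is not given in the sources used here. The longest overlaps are those of Trf with Gm20425 on the same strand (63.5% of Trf exon bases), which had no row of its own in the count table, and of Pllp with the antisense gene Gm45767 (54.2%). Gm45767 had 129 counts over all libraries, against 3888 for Pllp, and Hspb2, which overlaps 17.0% of Cryab, had 900 against 206174. Reads of Trf and Gm20425 cannot be told apart here.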

How the data were processed

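Gene expression was measured in 9 RNA libraries. The values are raw counts per gene as deposited by the authors, whose reads were aligned with HISAT2 to GRCm39, per the submitters' processing notes. Not given in the sources used here are versions, the counting tool, its strand setting and the annotation. The members and the gene lists were chosen with earlier results of these data known.

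The analysis ran in edgeR 4.0.16 under R 4.3.3: filterByExpr at its defaults left 18093 of 56748 genes, TMM scaled the libraries, and quasi-likelihood F-tests were read from 1 model of the 3 groups with 6 residual degrees of freedom. Calls had a Benjamini-Hochberg adjusted p under 0.05. The script was tested on simulated data. P-values rest on the spread of 3 replicates per group, and total counts of 12205049 to 24302770 limit precision only for genes with few counts.

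Levels are TMM-normalised CPM, and sums over lists are given as CPM of the library total where stated and otherwise as TMM-normalised CPM. Named genes were all members and, of each of 6 other lists, up to 3 genes with the smallest adjusted p per comparison, called exceptions, and Olig1, Olig2 and Sox10. Some items that the rule covers are not reported here. Outside that rule, Tcf7l2 and marker genes were chosen after their values were seen. Exon lengths came from GENCODE M21 (GRCm38) and promoters from RefSeq (GRCm38.p6), so no coordinate of GRCm39 was used. The Mbp length includes exons of its longer Golli transcripts.

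Alternatives were DESeq2 1.42.0 (size factors and Wald test), limma-voom (limma 3.58.1), scaling by upper quartiles, scaling by totals that leave out mitochondrial genes and the 100 most abundant ones, testing without any filter, a filter of 1 CPM in 3 libraries, only the 2 groups compared, a block for the replicate number, each library left out in turn, and uninjured replicates 2 and 3 left out together. No gene set was tested as a whole.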

Additional observations from a re-analysis of the deposited data

How the results depend on the processing

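Of the 608 values of members in each comparison (32 genes, 19 alternatives), 605 for cultures against injured cortex and 607 for cultures against uninjured cortex kept direction and call, the exceptions being those of Gsn given above. Between injured and uninjured cortex 542 did, 36 lost and 21 gained a call, and 9 changed sign, none of them called.

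Members called after injury numbered 14 by the DESeq2 Wald test, 4 with only the 2 groups compared (Olfml1, Qdpr, Aspa and Opalin), 1 without uninjured replicates 2 and 3, and 2 to 12 with 1 library left out. All genes called, 2145, became 1369 with only the 2 groups compared, 462 without uninjured replicates 2 and 3 and 974 to 4102 with 1 library left out. Genes called between cultures and injured cortex numbered 9057 (7195 to 9331 with 1 library left out), with 31 to 32 members. Between cultures and uninjured cortex there were 10954 (9585 to 12147), and 6996 without uninjured replicates 2 and 3. On the TMM scale the log2 ratio of the summed set was -3.16 for cultures against injured cortex and -3.54 against uninjured cortex, where -3.69 and -4.24 were found on the scale of library totals. Scaling moved the median gene by up to -0.15 (injured), -0.25 and -0.40 (cultures against injured and uninjured cortex), with library sizes without the 100 most abundant genes. Higher genes were 75.8% of the calls after injury, and 64%, 64.5% and 60.4% with upper-quartile factors, those library sizes and the Wald test. With those library sizes they were 29.6% in place of 39.9%, and 32% in place of 45.4%, in the 2 culture comparisons.

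The log2 fold changes after injury that changed sign were, without uninjured replicates 2 and 3, Abca8a 0.075, Cldn11 0.90, Myrf 0.55, Pllp 0.16, Olig2 0.25 and Sox10 0.42. With 1 library left out, the range ran across 0 for Apod (-0.25 to 0.64, below 0 without injured replicate 1), Cldn11 (-0.91 to 0.13), Pllp (-0.90 to 0.15), Olig1 (-0.14 to 0.55), Olig2 (-0.35 to 0.26) and Sox10 (-0.56 to 0.23). The cause was not tested.

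Libraries were not treated as paired by replicate number. Same-numbered injured and uninjured libraries correlated in their deviations at 0.15, -0.09 and 0.35, and differently numbered ones at -0.32 to 0.27. With 3 libraries per group these values cannot decide whether the numbers mark pairs. With the replicate block 8 members, the same ones, were called after injury among 2203 genes, and 32 in each culture comparison among 9096 and 11060 genes.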
